A study of Mus musculus with 2 samples.

Results

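The cells described here are Cd209a+ dendritic cells (DCs) of mouse liver metastases, proposed as type 2 conventional DCs, and 161 of 19999 filtered cells were assigned to them, 42 in Ctrl and 119 in KD. They were chosen by their own transcripts. A cell needed a UMI (a unique molecular identifier, which counts an RNA molecule) of Cd209a and of at least 1 of Flt3, Ccl17, Ctnnd2 and Zfp366. It had to lack UMIs of Xcr1, Clec9a, Cd3e, Cd79a and Siglech, and to hold fewer than 3 of the maturation genes Ccr7, Fscn1, Ccl22 and Cacnb3.

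Both groups were C57BL/6 mice of 6 to 8 weeks given MC38-LM3b cells, an MC38 colorectal cancer derivative selected in vivo for liver metastasis, by intrasplenic injection. The injected cells of Ctrl carried shScramble and those of KD carried shSLAMF3, 1 hairpin against SLAMF3 (encoded by Ly9), so the host's DCs carried neither. CD45+ cells were selected from the metastases 2 weeks later, and the lesions of 3 mice were pooled into 1 droplet-based 3' library per group. There was therefore no replicate error and no test, and all intervals are 95% intervals for counting error only.

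The libraries held 67207234 and 64444715 UMIs over 10416 and 10943 barcodes, of which 27 sequences occurred in both libraries and none belonged to a Cd209a+ DC. Filtered cells had a median of 5412 UMIs in Ctrl and 4989 in KD. The Cd209a+ DCs were of similar or greater depth, with a median of 6641 UMIs (2654 to 13731) in Ctrl and 8144 (1353 to 20931) in KD. Summed over the cells, 293310 UMIs were available in Ctrl and 1051275 in KD. Levels below are UMIs per 1000000 of these sums (CPM).

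Conventional DCs take up antigen and present it to T cells. Type 1 cells, which depend on the transcription factor IRF8 and express Xcr1 and Clec9a, are known for cross-presentation to CD8+ T cells. Type 2 cells, which rely on IRF4 and KLF4, present antigen on MHC class II to CD4+ T cells and carry C-type lectins such as CD209a, CLEC10A and MGL2. Both kinds develop under FLT3 and mature into CCR7+ cells that migrate to lymph nodes.

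The genes of the rule had been used to choose the cells and are given as a description. Cd209a, the mouse homolog of the lectin DC-SIGN, had a median of 4 UMIs per cell (1 to 16) in Ctrl and 3 (1 to 21) in KD. Over the summed cells the level was 771 CPM for Ctrl, and for KD it was 456 CPM. Flt3 was detected in 22 Ctrl and 64 KD cells, Ctnnd2 in 27 and 89, Zfp366 in 16 and 59, and the chemokine gene Ccl17 in 4 and 19. Of the 4 second genes, 20 Ctrl and 37 KD cells held 1 and the others held more. Just inside the rule lay 4 Ctrl and 13 KD cells with a single Cd209a UMI and a single second gene. Just outside lay 18 Ctrl and 40 KD cells with Cd209a but no second gene, with a median of 1 Cd209a UMI and a maximum of 8 and 9. A further 21 and 33 cells were left out for genes of other lineages, mostly Clec9a (10 and 26 cells) and Siglech (15 and 10). The limit on maturation genes removed no cell, and 3 Ctrl and 2 KD members held 2 of these genes. A further KD barcode met the rule but not the limits on cell quality.

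Markers the rule had not used were then described. Tbc1d4 was among the markers given with these cells beforehand, so its level is a description and not a check of the label. Tbc1d4, which encodes a Rab GTPase-activating protein, had 344 CPM in Ctrl against 380 CPM in KD, and a Tbc1d4 UMI was found in 57.1% (41.0% to 72.3%) and 62.2% (52.8% to 70.9%) of the cells. In T cells, the background here, it was found in 12.8% and 17.5%, at median depths of 7439 and 5856 UMIs. After thinning each cell to 2000 UMIs, which left out no Ctrl and 2 KD members, the shares were 35.7% and 35% in Cd209a+ DCs. They were 5.02% and 8.25% in T cells and 0% and 0.683% in B cells. The T cell share is therefore not a floor for this gene. Tbc1d4 was not particular to these cells, as mature DCs had 670 and 1564 CPM.

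Clec10a and Mgl2 encode lectins that bind galactose-type sugars. Clec10a had 170 CPM in Ctrl Cd209a+ DCs against 22.0 in cells classed as type 1 (cDC1), 11.4 in mature DCs, 9.41 in monocytes and 20.2 in macrophages. In KD the corresponding levels were 283, 42.9, 24.6, 22.5 and 36.9 CPM. Plasmacytoid DCs (pDCs) stood closer, at 182 and 198 CPM. Mgl2 had 170 and 186 CPM, above the 88 and 97.5 CPM of cDC1 and the 68.2 and 115 CPM of macrophages. Irf4 had 25 UMIs in 13 Ctrl cells and 74 in 38 KD cells. Zbtb46, a transcription factor of conventional DCs, had 61.4 and 95.1 CPM against 3.36 and 3.74 in monocytes.

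Not every type 2 marker set these cells apart. Sirpa and Itgam, which encode SIRPα and CD11b, had 147 and 71.6 CPM in Ctrl Cd209a+ DCs, below the 331 and 126 CPM of Ctrl cDC1. In KD, Sirpa was again lower than in cDC1 (224 against 245 CPM), while Itgam was higher (161 against 105 CPM). The cDC1 cells also carried macrophage RNA, with 2754 and 1556 CPM of C1qa against 95.5 and 119 CPM in Cd209a+ DCs, and its part in this comparison was not tested. Clec4a4, a lectin of a known type 2 subset, had 0 UMIs in Ctrl and 4 in KD. Monocyte genes were split, as Ly6c2 had 15 and 22 UMIs and Vcan 0 and 6, whereas Plac8 had 3617 and 2518 CPM, between cDC1 (1454 and 1526 CPM) and monocytes (8857 and 5673 CPM). Mgl2 lay in 7 of the 42 Ctrl cells (16.7%), below the 25.7% of Ctrl cDC1, and in 31.9% of KD cells against 24.8% of KD cDC1. The type 2 markers were thus split, and the cells are called Cd209a+ DCs below.

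**Figure D1:**
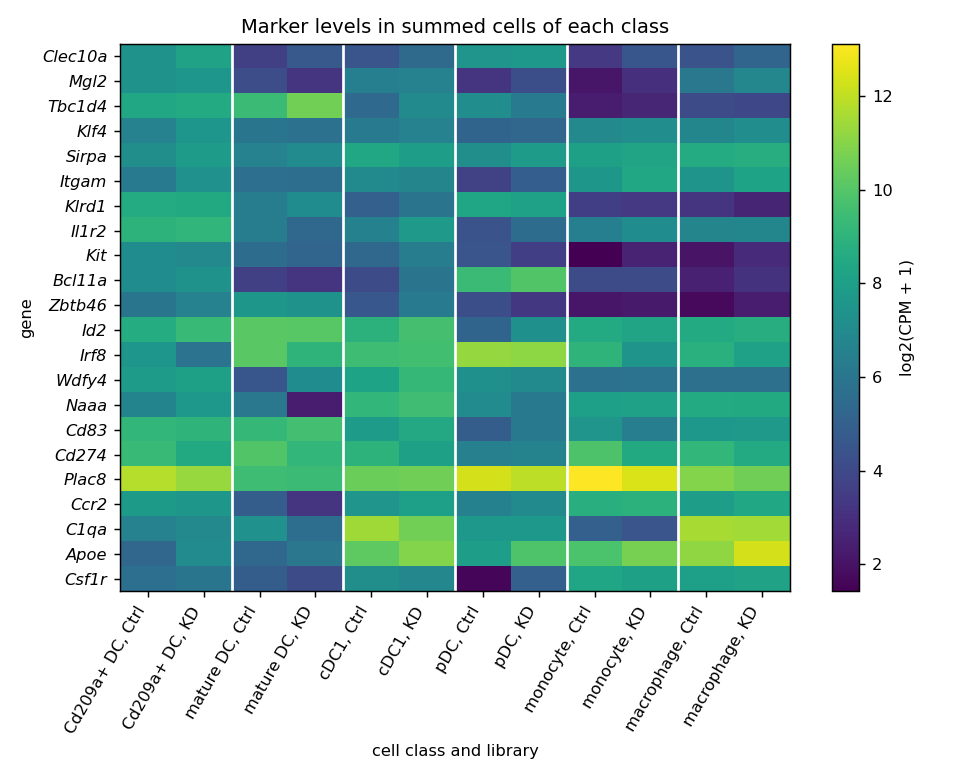
Marker levels, as log2(CPM + 1) shown by color, for 22 genes (rows) in the summed cells of 6 classes in each library (columns). Clec10a was high in Cd209a+ DCs and pDCs and low in mature DCs, cDC1, monocytes and macrophages, C1qa and Apoe were high in cDC1 and macrophages, and Irf8 was lower in KD than in Ctrl Cd209a+ DCs (57.1 against 191 CPM).

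The genes that most exceeded the mean of cDC1, mature DCs, monocytes and macrophages were then ranked by the lower of the libraries' log2 differences, with 5 CPM added. Since the cells had been picked by their transcripts, this ranking is a description, and pDCs were not among the classes compared. Clec10a led, at 3.08 in Ctrl and 2.97 in KD. Next came Adgrl3 (3.90 and 2.93), which encodes an adhesion receptor, Klrd1 (3.42 and 2.71), which encodes the CD94 chain of NK cell receptors, and Bcl11a (3.04 and 2.61), a transcription factor of lymphoid and DC development. Klrd1 was not limited to these cells, with 604 and 458 CPM in T cells and 322 and 276 CPM in pDCs against 395 and 371 CPM in Cd209a+ DCs. Bcl11a was higher in pDCs, at 664 and 969 CPM. Adgrl3, by contrast, had 174 and 217 CPM in Cd209a+ DCs and 0 and 2.22 CPM in pDCs.

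The remaining 11 genes by this rule were H2-Oa, Kmo, Ppp1r14a, Immp2l, Chn2, Il1r2, Mideas, Grap2, Kit, Ust and Ank. Il1r2, a decoy receptor for interleukin-1, had 505 CPM in Ctrl against 552 CPM in KD, against 93.8 and 215 CPM in cDC1. Kit, the stem cell factor receptor, had 136 and 122 CPM against 1.68 and 4.81 in monocytes. It was also detected in cDC1. A Kit UMI was found in 38.1% of Ctrl and 45.4% of KD Cd209a+ DCs, against 14.8% and 33.1% of cDC1. With cells thinned to equal depth, these shares were 21.4% and 14.5%, against 4.91% and 10.6% of cDC1. H2-Oa, which restrains peptide loading onto MHC class II, had 119 and 132 CPM against 24.9 and 52.5 in cDC1. Kmo, an enzyme of tryptophan breakdown, had 81.8 and 88.5 CPM against 24.1 and 43.5 in cDC1. Ank, a pyrophosphate transporter, was the member of this group that differed most between the libraries, with 184 CPM in Ctrl and 101 CPM in KD (log2 ratio -0.87, -1.35 to -0.37). Its ratio ranged from -1.03 to 1.49 across the alternative settings described at the end.

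Cd209a+ DCs were more frequent in the KD library. Of the filtered Ctrl cells 0.428% (0.309% to 0.578%) were Cd209a+ DCs, and of the filtered KD cells 1.17% (0.969% to 1.40%). The KD share was thus 2.73 times the Ctrl share, or higher by 0.740 percentage points (0.491 to 0.998). Among the cells of the 4 dendritic classes they made up 6.94% in Ctrl (42 of 605, 5.05% to 9.27%) and 22.5% in KD (119 of 529, 19.0% to 26.3%), a difference of 15.6 points (11.4 to 19.8). The cDC1 share of filtered cells went the other way, from 4.68% (4.27% to 5.11%) in Ctrl to 3.05% (2.73% to 3.41%) in KD. That direction held only for cDC1 with a C1qa UMI, which made up 3.48% of filtered Ctrl cells and 1.43% of filtered KD cells. The cDC1 without one were 117 cells (1.19%, 0.987% to 1.43%) in Ctrl and 165 cells (1.62%, 1.38% to 1.88%) in KD, so the direction turned. With the C1qa-positive cDC1 left out, which was chosen after the data had been seen, Cd209a+ DCs were 16.0% and 31.1% of the dendritic classes. Mature DCs (0.265% and 0.304%) and pDCs (0.795% and 0.668%) differed by less than their counting error. Shares of one whole depend on each other, and neutrophil-like cells were more frequent in KD. Without cells that held both S100a8 and Csf3r UMIs, the Cd209a+ DC shares were 0.460% and 1.46%, and over cells with a Ptprc (CD45) UMI they were 0.463% and 1.30%.

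At equal depth the difference was smaller. With every cell thinned to 2000 UMIs before the rule was applied, 18 of 8573 Ctrl cells (0.210%) and 32 of 9131 KD cells (0.350%) qualified. The difference was then 0.140 points, with an interval from -0.0239 to 0.308 that includes 0. As a share of DCs, thinned Cd209a+ cells came to 9.05% for Ctrl and 14.8% for KD, which differ by 5.77 points (-0.834 to 12.3).

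**Figure D2:**
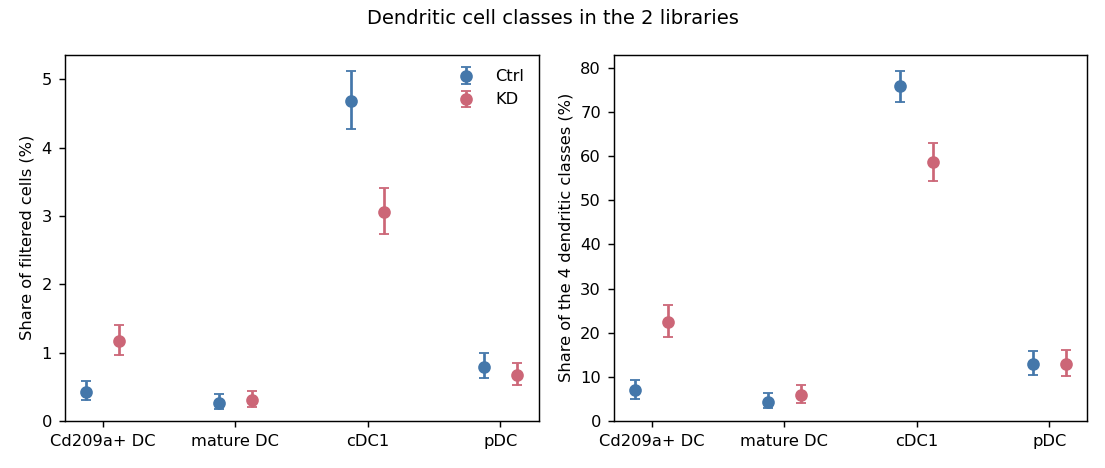
Share of filtered cells (left, %) and of the 4 dendritic classes together (right, %) for each dendritic class, with Ctrl in blue and KD in red. Points are the values of the single library of each group, and bars are exact 95% intervals for counting error. The Cd209a+ DC share was 0.428% in Ctrl and 1.17% in KD, and the cDC1 share 4.68% and 3.05%.

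Next, the transcripts of the Cd209a+ DCs were compared between the libraries. Most genes had similar levels. Among the genes named below, Cxcl10 had the lowest ratio, and the highest were those of genes of other cell types in a few KD cells. Of the genes of the interferon lists with at least 100 UMIs, Cxcl10 alone was past 2-fold. Of 2123 genes with at least 100 UMIs over both libraries, 38 (1.79%) were at least 2-fold higher in KD and 26 (1.22%) at least 2-fold lower. The median log2 ratio of KD over Ctrl was -0.02, with quartiles of -0.27 and 0.22.

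Some KD cells carried RNA of other lineages. Among the Cd209a+ DCs, 6 KD cells held at least 10 UMIs of neutrophil genes, 2 held at least 10 UMIs of endothelial, hepatocyte, epithelial or fibroblast genes, and 4 held at least 10 C1q UMIs. In Ctrl 1 cell was of this kind, through C1q. Without these 1 Ctrl and 12 KD cells, a choice made after the data had been seen, 17 genes were at least 2-fold higher and 24 lower among 1829. The neutrophil list of 6 genes summed to 54.6 CPM in Ctrl and 2602 CPM in KD, and to 53.4 and 143 CPM without those cells. The non-immune list summed to 20.5 and 273 CPM, and to 21.4 and 24.8 without them, and the macrophage list to 559 and 760 CPM, and to 239 and 338 without them. S100a8 had 6 and 1051 UMIs, of which 351 lay in a single KD cell, and its log2 ratio of 5.61 (4.48 to 7.06) became 1.34 without those cells. A S100a8 UMI was present in 33.6% of KD Cd209a+ DCs and in 33.8% of KD T cells, which is the background level. The Kupffer cell list summed to 47.7 and 38.0 CPM, the T and NK cell list to 58.0 and 15.2, and the B cell list to 61.4 and 70.4. Scrublet, a doublet caller set to the expected rate, marked 5 Ctrl and 10 KD members.

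By the rule for naming genes, the highest log2 ratios included those of Fabp4, Stab2, Adam23, Stmn1, Sirpd, Mxi1, Pclaf, Shtn1 and Ndufa11. Fabp4, a fatty acid carrier, and Stab2, a scavenger receptor of liver endothelium, had 0 UMIs in Ctrl. In KD they had 237 and 123 UMIs, at least 22.0-fold and 11.4-fold higher when 3 UMIs are set for the library with none. Of these, 189 Fabp4 UMIs lay in 1 cell and 63 Stab2 UMIs in another, and 20 and 7 UMIs remained without the mixed cells. Fabp4 also had 74.5 CPM in KD T cells against 3.90 in Ctrl T cells.

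The other genes named kept a log2 ratio above 1 without the mixed cells. Adam23, which encodes a cell-surface disintegrin family protein, had 9 UMIs (30.7 CPM) in 6 Ctrl cells and 169 UMIs (161 CPM) in 38 KD cells, a log2 ratio of 2.39 (1.43 to 3.54). In the cells that met the rule after thinning it had 0 and 8 UMIs. With the members themselves thinned, an Adam23 UMI was found in 3 of 42 Ctrl and 18 of 117 KD cells. Its UMIs were also more common in KD in cDC1 (log2 ratio 2.76) and in T cells (29.2 against 3.43 CPM). Sirpd had 27.3 and 91.3 CPM (1.74, 0.71 to 3.0). Mxi1, a partner of MAX that opposes MYC, had 27.3 and 89.4 CPM. Shtn1 had 37.5 and 105 CPM, and Ndufa11, a subunit of respiratory complex I, 34.1 and 88.5 CPM. Stmn1, which destabilizes microtubules, had 51.1 and 246 CPM (2.27, 1.52 to 3.13), and Pclaf, a partner of PCNA, 30.7 and 93.2 CPM.

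Stmn1 and Pclaf are used by dividing cells. Cells with at least 2 of Mki67, Top2a, Ccnb2, Cdk1 and Birc5 made up 5 of 42 in Ctrl, 11.9% (3.98% to 25.6%), and 17 of 119 in KD, 14.3% (8.55% to 21.9%), a difference within counting error. Of the 16 cell cycle genes, 6 reached 100 UMIs, with a median log2 ratio of 0.14. Without the cycling cells Stmn1 had 3 and 16 UMIs, a log2 ratio of 0.67, and Pclaf 1 and 1. Only Stmn1 of the 6 was past 2-fold, while Mki67 had 88.6 and 96.1 CPM and Top2a 95.5 and 107 CPM.

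The lowest log2 ratios included those of Cxcl10, Tmtc2, Gch1, Cldnd1, Atp5l, Rbbp8, Ifi27l2a, Abtb2 and Pcgf5. Cxcl10, a ligand of the T cell receptor CXCR3, had 251 UMIs (856 CPM) in Ctrl and 174 UMIs (166 CPM) in KD, a log2 ratio of -2.37 (-2.66 to -2.09). It was -2.34 without the cell richest in Cxcl10 in each library. The UMIs were unevenly spread, with 51, 50, 32, 29, 23 and 23 in single Ctrl cells and 32 and 31 in single KD cells. The interval does not cover such spread between cells. A Cxcl10 UMI was present in 18 of 42 Ctrl cells (42.9%, 27.7% to 59.0%) and 23 of 119 KD cells (19.3%, 12.7% to 27.6%), against 19.1% and 11.2% of T cells. At 2000 UMIs per cell the shares were 26.2% (13.9% to 42.0%) and 11.1% (6.05% to 18.3%), against 7.16% and 4.63% of T cells.

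Gch1, which starts the synthesis of tetrahydrobiopterin, had 269 CPM in Ctrl against 81.8 CPM in KD (-1.72, -2.18 to -1.26), and 28 of its 79 Ctrl UMIs lay in 1 cell. Ifi27l2a, an interferon-induced gene, had 713 and 276 CPM (-1.37, -1.63 to -1.11) and was detected in 38 of 42 and 84 of 119 cells. Tmtc2, which is involved in glycosylation, had 249 and 69.4 CPM, from 12 Ctrl and 25 KD cells. Rbbp8, a DNA repair gene, had 150 and 56.1 CPM, and Pcgf5, a Polycomb group gene, 198 and 84.7 CPM. Abtb2 had 266 and 104 CPM, Cldnd1 170 and 59.9 CPM, and Atp5l, a subunit of ATP synthase, 150 and 56.1 CPM.

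**Figure D3:**
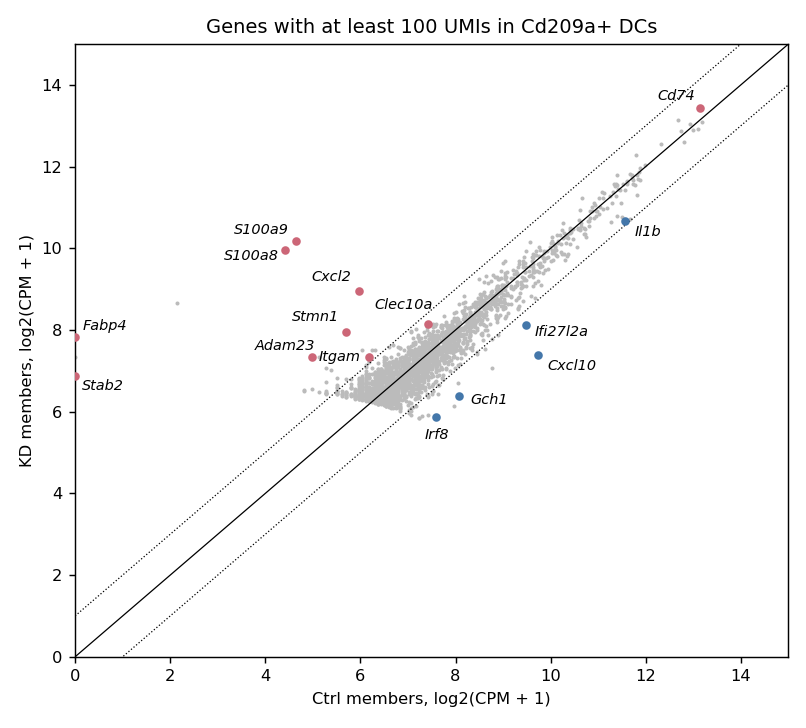
Level of each of 2123 genes in Ctrl (x axis) and KD (y axis) Cd209a+ DCs, as log2(CPM + 1), 1 point per gene. The solid line marks equal levels and the dotted lines a 2-fold difference, and named genes are in red where higher in KD and in blue where lower. Cxcl10 lies at 856 CPM in Ctrl and 166 CPM in KD, while S100a8, S100a9, Fabp4 and Stab2 lie far above the line through a few KD cells.

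Genes that respond to interferon were lower in KD Cd209a+ DCs. Interferon-gamma induces guanylate-binding GTPases, IRF1 and the CXCR3 ligands, and type I interferons act through the related ISGF3 complex. Of 15 interferon-gamma response genes, 5 reached 100 UMIs and all 5 had a negative log2 ratio, with a median of -0.86, against -0.02 over all genes, of which 52.9% were negative. Of these 5, 1 (Cxcl10) was past 2-fold. Across the alternative settings described at the end, Cxcl9 ranged from -0.72 to 1.49 and Gbp2 from -1.13 to 0.43, so both took either sign. Cxcl10, Irf1 (-1.42 to -0.65) and Gbp7 (-1.09 to -0.25) stayed negative. The median rests on few genes, and was -0.14 over 3 genes where at least 2 of the second genes were required and -1.52 over 2 genes with a minimum of 200 UMIs. Cxcl9, also a CXCR3 ligand, had 276 CPM in Ctrl against 174 CPM in KD (-0.67, -1.05 to -0.27). Irf1 had 167 and 84.7 CPM (-0.98, -1.5 to -0.45), Gbp2 had 194 and 116 CPM (-0.74, -1.21 to -0.26), and Gbp7 had 133 and 73.2 CPM (-0.86, -1.43 to -0.27). Below 100 UMIs lay Socs1, a feedback inhibitor of this pathway (25 UMIs in Ctrl and 17 in KD), Irgm1 (30 and 35), Gbp5 (25 and 32), Gbp3 (25 and 36), Igtp (23 and 41) and Gbp4 (15 and 30). Gbp6 had 1 UMI in each library and Ido1 had none. The KD cells held more UMIs in all, as given above.

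Summed over the list, the interferon-gamma genes had 2318 CPM in Ctrl against 918 CPM in KD, a log2 ratio of -1.34 (-1.48 to -1.19), or -1.42 without the mixed cells. Per cell, they had a median of 9.88 UMIs per 10000 in Ctrl (0 to 158) and 4.02 in KD (0 to 89.3), so the ranges overlapped widely. The quartiles were 3.99 and 22.3 in Ctrl and 1.68 and 7.95 in KD. Of 15 type I interferon genes, only Isg15, a ubiquitin-like modifier, and Bst2, a restriction factor of enveloped viruses, reached 100 UMIs. Isg15 had 252 and 133 CPM (-0.92, -1.34 to -0.50) and Bst2 382 and 283 CPM (-0.43, -0.75 to -0.11). The list as a whole summed to 1231 and 770 CPM (-0.68, -0.86 to -0.49). For the receptor, Ifngr1 had 293 and 378 CPM and Ifngr2 85.2 and 99.9 CPM.

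Lower interferon-gamma genes were not particular to Cd209a+ DCs. The list's summed log2 ratio was -1.09 in cDC1 (4456 and 2091 CPM), -1.0 in mature DCs (2248 and 1126 CPM), -1.18 in macrophages (5228 and 2303 CPM) and -1.87 in monocytes (6140 and 1683 CPM). Within Ctrl, Cd209a+ DCs had about the level of mature DCs and below that of cDC1, and they had the lowest level of these classes in KD. Cxcl10 itself had log2 ratios of -1.02 in cDC1, -1.87 in mature DCs, -1.99 in monocytes and -1.36 in macrophages.

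Genes of the interferon lists were set beside their promoters, for which reference sequence (RefSeq, GRCm38.p6) was at hand. The 250 bases before each start site were searched on both strands for GAAA, any 2 bases and GAAA again, an ISRE-type motif bound by interferon regulatory factors and ISGF3, and for TTCNNNGAA, a GAS-type motif of interferon-gamma responsive promoters. Capitals mark the matches. Cxcl10, Gbp2, Irf1 and Isg15 are shown as examples that hold a match and had a lower level in KD. Gbp2 took either sign across the alternative settings. Gbp7 and Bst2 also held a match and had a lower level, and are not shown.

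Cxcl10, chr5:92349040-92349139, minus strand: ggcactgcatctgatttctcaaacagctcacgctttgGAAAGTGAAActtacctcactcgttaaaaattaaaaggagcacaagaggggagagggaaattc

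Gbp2, chr3:142620559-142620658, plus strand: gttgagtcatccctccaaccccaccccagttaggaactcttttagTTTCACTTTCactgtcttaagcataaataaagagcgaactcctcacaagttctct

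Irf1, chr11:53769878-53769977, plus strand: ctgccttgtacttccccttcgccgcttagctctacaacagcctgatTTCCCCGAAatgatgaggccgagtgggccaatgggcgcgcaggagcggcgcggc

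Isg15, chr4:156200842-156200941, minus strand: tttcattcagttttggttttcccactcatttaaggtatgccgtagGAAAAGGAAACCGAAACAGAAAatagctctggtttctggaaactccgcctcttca

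The first base of the ISRE-type match lies 213 bases before the start site of Cxcl10, 59 before that of Gbp2 and 78 before that of Isg15, where 3 matches overlap. In Irf1 the GAS-type match begins 90 bases before the start site. Of the 10 interferon-gamma list genes with a promoter in the table, 8 held the ISRE-type and 4 the GAS-type motif. Of the 5 among them with at least 100 UMIs, 3 and 2 did. Of 12 type I list genes, 6 and 2 did. A gene was counted if any of its promoters held the motif. Over all 32851 promoters of the table the shares were 2.98% and 7.02%, which are per promoter and not per gene. The lists were made of interferon-responsive genes, so these counts describe the lists and not the difference between the libraries. A match describes these letters only and is not a measured binding site.

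Antigen presentation genes were at similar levels in both libraries. All 14 MHC class II genes passed 100 UMIs and none was past 2-fold, with a median log2 ratio of 0.11. Cd74, the invariant chain, had 9076 CPM in Ctrl against 11149 CPM in KD (0.30, 0.24 to 0.36). The class II chains H2-Aa, H2-Ab1 and H2-Eb1 had 6836 and 7423, 5117 and 5997, and 7859 and 8474 CPM. H2-DMb2, a chain of the peptide-loading factor, had the highest ratio (92.1 and 155 CPM, 0.75, 0.16 to 1.40), and H2-Ob the lowest (106 and 69.4 CPM, -0.61, -1.23 to 0.05). Ciita, the master regulator of class II genes, had 157 and 168 CPM.

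Summed, the class II list had 32836 and 37105 CPM, a log2 ratio of 0.18 (0.14 to 0.21), and its share of a cell's UMIs ranged from 36.1 to 697 per 10000 in Ctrl and from 11.0 to 773 in KD. The same sum had log2 ratios of 0.04 in cDC1, 0.67 in mature DCs, -0.11 in macrophages and -0.70 in monocytes. For class I, 10 of 12 genes reached 100 UMIs and none was past 2-fold, with a median of -0.21. H2-K1 had 1677 and 1421 CPM, B2m 1817 and 1711 CPM, and Psmb10, an immunoproteasome subunit, 249 and 162 CPM (-0.62, -1.03 to -0.21).

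**Figure D4:**
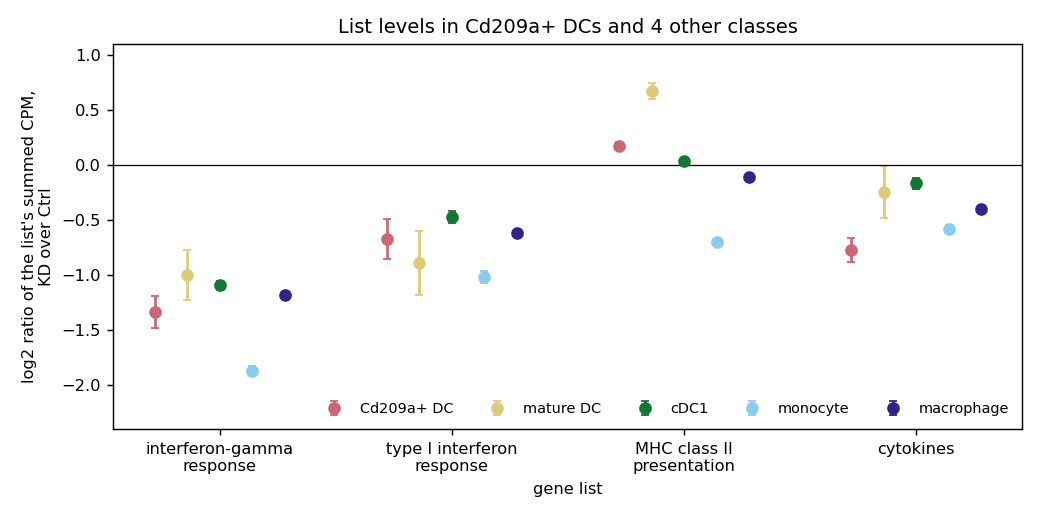
Log2 ratio of KD over Ctrl (y axis) of the summed CPM of 4 gene lists (x axis) in Cd209a+ DCs and 4 other classes, with 95% intervals for counting error. The interferon-gamma list lay below 0 in all 5 classes, from -1.0 in mature DCs to -1.87 in monocytes, while the MHC class II list lay at 0.18 in Cd209a+ DCs and -0.70 in monocytes.

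Cytokine and ligand genes followed. Il1b, the gene of the inflammatory cytokine interleukin-1β, had 893 UMIs (3045 CPM) in Ctrl and 1702 UMIs (1619 CPM) in KD, a log2 ratio of -0.91 (-1.03 to -0.79), and of -0.90 without the mixed cells. It was -0.60 where Flt3 was required. It was detected in 37 of 42 Ctrl cells (88.1%) and 93 of 119 KD cells (78.2%), against 21.4% and 19.7% of T cells. In cDC1 its level was 1095 and 1092 CPM. Of 16 cytokine genes, Tgfb1 alone also reached 100 UMIs, at 177 and 141 CPM. Tnf had 17 and 82 UMIs, Il10 5 and 8, Il6 1 and 13, and Il12b and Il23a 0 and 1.

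Cd274, which encodes PD-L1, had 638 CPM in Ctrl against 370 CPM in KD (-0.78, -1.04 to -0.53). The ratio was -0.43 with at least 2 second genes and -0.20 in the cells that met the rule after thinning. With the members themselves thinned, a Cd274 UMI was found in 54.8% of Ctrl and 32.5% of KD cells. The log2 ratio of Cd274 was -0.94 in cDC1 and -1.32 in monocytes. Cd86, a costimulatory ligand of CD28, had 944 and 706 CPM (-0.42, -0.62 to -0.22), and Cd80 had 235 and 213 CPM. Of 15 costimulatory and coinhibitory genes 5 reached 100 UMIs, and none was past 2-fold, with a median of -0.20. Of 14 genes of mature DCs 7 reached 100 UMIs, and 6 of these had a negative ratio, with a median of -0.36. Over all 2123 genes 52.9% were negative. Relb, an NF-κB subunit of DC maturation, was past 2-fold, at 130 and 61.8 CPM (-1.07, -1.67 to -0.45). Ccl22, a maturation chemokine that the rule had used, had 18 and 9 UMIs.

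Among 15 other chemokine genes 8 reached 100 UMIs, 4 with a positive and 4 with a negative ratio. Ccl3, Ccl6 and Ccl9 were higher in KD by less than 2-fold, at 167 and 269, 205 and 278, and 109 and 170 CPM. Ccl4 was lower, at 1411 and 1204 CPM. None of these kept its sign in every alternative setting. The log2 ratios ranged from -0.13 to 1.15 for Ccl3, -0.09 to 0.50 for Ccl6, -1.32 to 1.27 for Ccl9 and -0.67 to 0.18 for Ccl4. Cxcl2, a neutrophil attractant, had 18 UMIs in 16 Ctrl cells and 516 in 46 KD cells, 150 of them in 1 cell, a log2 ratio of 3.0 (2.32 to 3.77), or 2.15 without the mixed cells and 1.28 without cells of the highest Scrublet scores. The shares of cells with a Cxcl2 UMI were 38.1% and 38.7%, against 19.4% and 32.8% of T cells.

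Transcription factors of DC identity were unequal. Of 23 factors 18 reached 100 UMIs, 13 of them with a negative ratio, against 52.9% of all genes. Past 2-fold were 2, Irf8 and Relb, both lower in KD, against 1.22% of all genes. Irf8, needed by cDC1 and pDCs, had 56 UMIs (191 CPM) in 18 Ctrl cells and 60 UMIs (57.1 CPM) in 23 KD cells, a log2 ratio of -1.74 (-2.29 to -1.19). It was -2.74 without the mixed cells and -0.80 where at least 2 of the second genes were required. An Irf8 UMI was found in 42.9% and 19.3% of Cd209a+ DCs. This was below the 63.1% and 37.0% of T cells and the 58.8% and 48.9% of B cells. In cDC1 it stood at 724 and 760 CPM (0.07). Klf4, which type 2 cells need, had 95.5 and 189 CPM (0.99, 0.41 to 1.61), or a ratio of 0.36 with at least 2 second genes, and Id2, an inhibitor of E proteins that DCs need, had 399 and 641 CPM (0.68, 0.40 to 0.98). Rbpj, the nuclear effector of Notch, had 419 and 283 CPM (-0.56, -0.87 to -0.25). Spi1 (PU.1) had 484 CPM in each library. Tbx21, which encodes T-bet, had 29 UMIs in 11 Ctrl cells and 23 UMIs in 19 KD cells.

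The type 2 identity list, which includes Klf4 and Rbpj, was of mixed direction. Of its 13 genes 8 reached 100 UMIs, with 6 positive and 2 negative ratios (Notch2 and Rbpj) and a median of 0.38. Over all genes 47.1% were positive. Past 2-fold was 1, Itgam, higher in KD, against 1.79% of all genes. Itgam had 21 UMIs (71.6 CPM) in 15 Ctrl cells and 169 UMIs (161 CPM) in 70 KD cells (1.17, 0.51 to 1.90), or 0.97 without the mixed cells. Sirpa had 147 and 224 CPM (0.61, 0.14 to 1.12). Clec10a had a log2 ratio of 0.73 (0.30 to 1.20) and was detected in 45.2% and 56.3% of the cells, against 0.766% and 1.45% of T cells. At 2000 UMIs these shares were 21.4% (10.3% to 36.8%) and 33.3% (24.9% to 42.6%). In the pan-conventional list all 11 genes reached 100 UMIs, and Irf8 was the only one past 2-fold, with a median of 0.22.

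**Figure D5:**
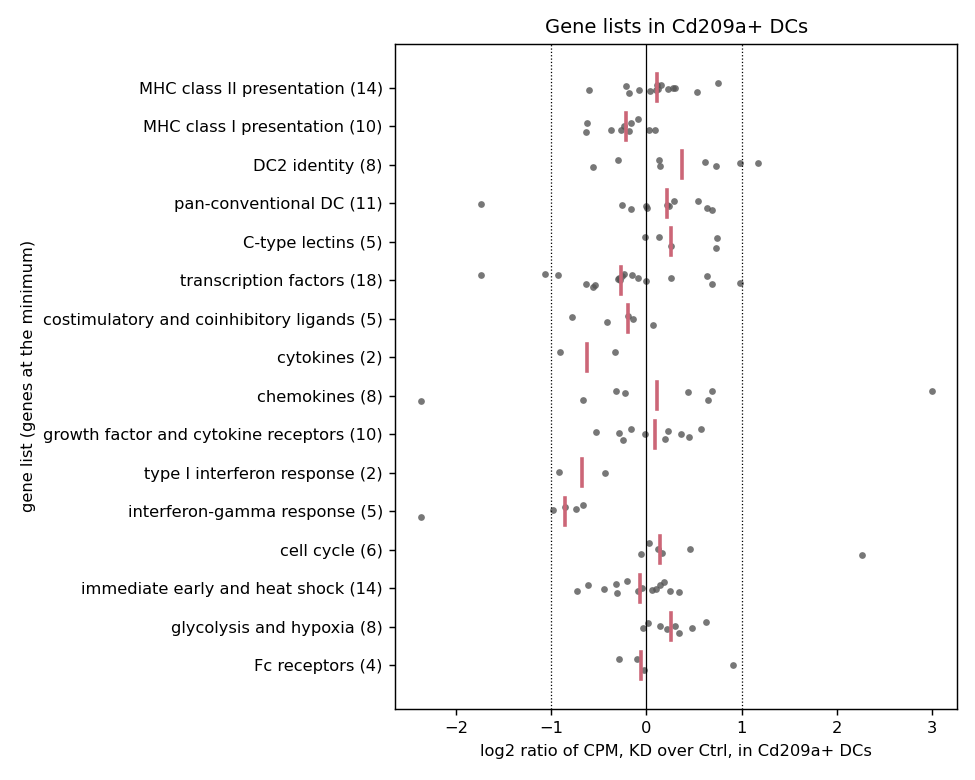
Log2 ratios of KD over Ctrl (x axis) in Cd209a+ DCs for the genes of 16 lists (y axis) with at least 100 UMIs, 1 point per gene, with the list's median as a red bar and dotted lines at a 2-fold difference. The interferon-gamma median was -0.86 and the MHC class II median 0.11, and Cxcl10 at -2.37 and Cxcl2 at 3.0 are the extreme points of the chemokines.

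In the following functional groups no gene with at least 100 UMIs was past 2-fold. C-type lectins other than Cd209a had 5 of 19 genes at 100 UMIs and a median of 0.25, above the upper quartile of all genes, with Clec7a, the β-glucan receptor Dectin-1, at 453 and 450 CPM. Growth factor and cytokine receptors had 10 of 16 and a median of 0.09, with none past 2-fold. Of 13 migration receptors 5 reached 100 UMIs, with Gpr183, an oxysterol receptor, at 331 and 298 CPM. Among Fc receptors, the inhibitory Fcgr2b had 133 and 250 CPM (0.91, 0.42 to 1.44) and Fcer1g 2093 and 2058 CPM. Glycolysis genes also lay above that quartile, with a median of 0.26 over 8 genes. Of these 7 had a positive ratio, against 47.1% of all genes, and Gapdh was at 528 and 817 CPM. Of 15 immediate early and heat shock genes, which respond to tissue dissociation, 14 reached 100 UMIs and none was past 2-fold, with Hspa1a at 2458 and 1608 CPM and Hspa1b at 2898 and 1753 CPM. Pattern recognition genes had 3 of 18, with Nlrp3 at 177 and 152 CPM.

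Of the SLAM family, Cd48 had 188 and 271 CPM and Slamf7 276 and 173 CPM (-0.67, -1.06 to -0.28). Ly9, which encodes SLAMF3, had 2 UMIs in Ctrl and 8 in KD, so no difference was detectable at this depth in these host cells.

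Finally, members with and without a Flt3 UMI were described, since Flt3 is the receptor that conventional DCs depend on. There were 22 with and 20 without in Ctrl, and 64 and 55 in KD, at medians of 6503, 6826, 8640 and 7532 UMIs. MHC class II genes summed to 30799 CPM with and 34719 without Flt3 in Ctrl, and to 38731 and 35046 in KD. Cell cycle genes were higher with Flt3 in both libraries, at 1455 (1262 to 1668) against 709 (581 to 856) CPM in Ctrl and 1990 (1877 to 2107) against 847 (766 to 936) in KD. Macrophage genes had 241 (167 to 337) against 853 (713 to 1013) CPM in Ctrl and 536 (479 to 599) against 1044 (953 to 1141) in KD. That difference was not seen without the mixed cells. Without them, a choice made after the data had been seen, the levels were 241 against 236 (162 to 331) CPM in Ctrl and 329 (282 to 383) against 350 (292 to 415) in KD. Without them the cell cycle genes were still higher with Flt3, at 1455 against 644 CPM and 2039 against 952 CPM.

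Interferon-gamma genes were also lower with Flt3, at 1717 (1508 to 1948) against 2874 (2611 to 3156) CPM in Ctrl and 582 (522 to 647) against 1343 (1240 to 1453) in KD, and KD lay below Ctrl in both subsets. Without the mixed cells the levels were 1717 against 2767 CPM and 569 against 1216 CPM. Of the 144 Cxcl10 UMIs of Ctrl cells without Flt3, 51 lay in 1 cell and 50 in another, and the intervals do not cover such spread between cells. Mgl2 had 1 UMI in the 22 Ctrl cells with Flt3 and 49 in the 20 without. In KD this was not seen, with 108 and 88 UMIs, or 184 (151 to 222) and 190 (152 to 234) CPM. The Mgl2 UMIs of Ctrl lay in 7 cells, at most 18 in any of them. Clec10a had 199 (132 to 287) and 144 (90.5 to 219) CPM in Ctrl and 363 (315 to 415) and 183 (146 to 227) in KD.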

How the data were processed

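CD45+ cells of liver metastases were profiled with the 10x Genomics 3' v3.1 chemistry. The authors deposited UMI counts for each gene and barcode, which were not normalized. The submitters' processing notes name Cell Ranger 7.1.0, Seurat 5.1.0, R 4.4.1 and the build GRCm39. The annotation release is not given in the sources used here, so genes carry the symbols of the files and no coordinates in that build are given. The study's cell limits were applied, namely a minimum of 200 genes and maxima of 6000 genes, 30000 UMIs and 10% mitochondrial UMIs.

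UMIs were summed per class and library in Python 3.11.15 (scipy 1.17.1) and scaled to CPM by the class total. With 1 library per group no test was run. Shares have exact Clopper-Pearson intervals, levels Poisson intervals and log2 ratios exact conditional binomial intervals, and all cover counting error only. The ratio and interval code was tested on simulated data. Genes with at least 100 UMIs over both libraries were compared, and a log2 ratio of 1 or -1 was the fold limit. The text names genes of 30 lists (values at 100 UMIs and counts below), the 10 highest and 10 lowest ratios and the 15 genes most above similar classes. For the extremes, the level had to be at least 0.5 times that over all filtered cells, 0.5 CPM was added for ranking, and mitochondrial, ribosomal, receptor segment, sex-linked, rule and unnamed genes were left out. The lists, the rule of the cells and the comparisons were chosen with earlier results of these data known.

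The other classes also came from detected genes. Mature DCs had at least 3 of Ccr7, Fscn1, Ccl22 and Cacnb3. The cDC1 had Xcr1 or Clec9a and at least 2 of these, Wdfy4 and Flt3. The pDCs had Siglech with Ccr9, Cox6a2 or Klk1. Monocytes had Csf1r with at least 3 of Ly6c2, Vcan, Ccr2, F13a1 and Plac8. Macrophages had Csf1r and at least 5 C1q UMIs, T cells Cd3e and Cd3d, and B cells Cd79a and Ms4a1. Doublets were treated only by the limits on UMIs and genes, and Scrublet (scanpy 1.11.5) was an alternative, at 0.8% per 1000 cells. Promoter sequences came from a RefSeq table of GRCm38.p6. Some genes that these rules name are not reported here.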

Additional observations from a re-analysis of the deposited data

Results flagged for a closer look

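Shares of dendritic classes differed in direction between Ctrl and KD. The share of filtered cells was 0.740 points higher in KD for Cd209a+ DCs and lower for cDC1, at -1.62 points. Among cDC1 without a C1qa UMI the direction turned, to 0.428 points higher in KD, so the opposite direction rests on cDC1 with a C1qa UMI. The levels of MHC class II genes also moved in opposite directions in different classes. Their summed log2 ratio was 0.18 in Cd209a+ DCs and -0.70 in monocytes. With 1 library per group, neither difference between classes was tested.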

How the results depend on the processing

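Each group had 1 library, so no replicate could be left out. No paired analysis was possible because each group was a separate pool of 3 mice. The share of filtered cells was 0.488 points higher in KD with at least 2 Cd209a UMIs, 0.404 with a Flt3 UMI required, 0.140 with thinned cells and 0.999 without cells holding S100a8 and Csf3r. The share of DCs was 9.74 points higher with a Flt3 UMI required and 5.77 with thinned cells. In the other 6 and 8 alternatives of these shares the difference stayed within its counting interval. The genes at least 2-fold higher numbered 140 with a minimum of 50 UMIs, 9 with 200, 25 without cycling cells, 17 without mixed cells and 1 with thinned cells. The genes at least 2-fold lower numbered 68 with 50 UMIs, 6 with 200, 16 with 2 of the second genes required, 13 with Flt3 required and 1 with thinned cells. Fewer cells or UMIs leave fewer genes at the minimum (122 with thinned cells). With the mixed cells left out, the split of 38 higher and 26 lower became 17 and 24. Of 319 alternative list medians, 302 moved by less than 1.5-fold. Of the 64 genes past 2-fold, alternatives were run for the 28 that were named or listed, and none of these reversed where a ratio could be computed, but the Fabp4 bound was 1.08 on the log2 scale without the mixed cells and 0.64 with at least 2 Cd209a UMIs, and Stab2 had too few UMIs for one without the mixed cells. Across alternatives Cxcl10 ranged from -3.0 to -1.60, Il1b from -1.24 to -0.60, Irf8 from -3.19 to -0.80 and Itgam from 0.97 to 1.34. The interferon-gamma median ranged from -2.71, over 1 gene with Flt3 required, to -0.14. The lists and cells were sparse, so genes under 100 UMIs are given as counts only. The mixed cells, the richest single cells and the C1qa-positive cDC1 were left out as alternatives chosen after seeing the data.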
